A study of Mus musculus with 4 samples.

Results

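The genes described here were Spp1, Thbs1, Fn1, Vegfa and Tgfbi, 5 of the 32285 genes in the count matrices, and they were followed in C1q-positive macrophages, monocytes, other Lyz2-expressing cells, dendritic cells (DC) and T cells of YUMMER1.7 melanomas. The genes were chosen from their own UMIs (unique molecular identifiers, each counting 1 captured transcript) in these cell classes, treatment arms and cohorts. Their levels by class, arm and cohort are therefore given as a description, without a test.

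All 5 genes encode secreted proteins through which tumor-infiltrating macrophages and monocytes act on matrix and vessels. Osteopontin (Spp1) and thrombospondin-1 (Thbs1) are matricellular proteins that bind integrins and CD44 or CD36 and CD47, and thrombospondin-1 is also a natural inhibitor of angiogenesis. Fibronectin (Fn1) and the TGF-β–induced protein (Tgfbi) are matrix adhesion proteins bound by integrins, whereas Vegfa is the main growth factor for endothelial cells and is induced by hypoxia.

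YUMMER1.7 is a mouse melanoma line with a high mutation load, and it was grown under the skin of WT C57BL/6J male mice, 7 to 8 weeks old. Mice received isotype control IgG1, anti–PD-1 at 10 mg/kg, anti-MIF at 20 mg/kg, or anti–PD-1/anti-MIF. Macrophage migration inhibitory factor (MIF) is a cytokine that signals through CD74. The long cohort was treated for 2 weeks with 4 doses up to day 21, and the short cohort for 1 week with 2 doses up to day 14. Sorted CD45+ cells (80%) and CD45- cells (20%) were recombined for 5′ scRNA-Seq, so the shares of immune and nonimmune cells were set by the sort. Each cohort was 1 library in which hashtag antibodies marked the arms. Every arm of a cohort was thus 1 sample, the number of mice behind it was not given in the labels, and cohort, day of harvest and library cannot be told apart. The line was used as 1 tumor model in mice of 1 sex.

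The long library held 2516 cell barcodes with 23702910 gene UMIs and the short library 4987 with 31799441. The 2 libraries shared 20 barcode sequences. After the filters and hashtag calls, 1671 cells of the long cohort and 3119 of the short cohort remained in the 4 arms. The arms were unequal in depth. Long isotype was the shallowest, with 204 cells and 1563467 UMIs, and long anti-MIF the deepest, with 879 cells and 8712647 UMIs. 1 more hashtag, named for PD-1, MIF and DDT, is not among the treatments in the labels, and its cells were kept out of the values and tests of the 4 arms and are described separately after them.

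Cells were assigned by marker UMIs. C1q-positive macrophages had Lyz2 (lysozyme) with C1qb (a chain of complement C1q), monocytes had Lyz2 with Ly6c2 but no C1qb, and other Lyz2 cells had neither partner. DC had Ccr7 and Fscn1, which mark mature migratory DC, and T cells had Cd3e. The 4 arms of both cohorts gave 1038 C1q-positive macrophages (23 to 356 per arm), 1652 monocytes (59 to 611), 466 other Lyz2 cells (12 to 106), 149 DC (6 to 69) and 589 T cells (36 to 187).

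Other markers were compared with these names. C1qa, which encodes another chain of the complex whose C1qb chain defined the class and so largely restates it, had a mean of 1910 counts per 1000000 UMIs (CPM) in C1q-positive macrophages against 4.17 CPM in monocytes, while of the markers less tied to the definition, Apoe had 1614 CPM against 426 CPM and Csf1r 421 CPM against 388 CPM. The 6 monocyte markers, led by Plac8, summed to 5651 CPM in monocytes and 2322 CPM in C1q-positive macrophages. The classes were not exclusive, because 569 of the 1038 C1q-positive cells (54.8%) also held Ly6c2. Membership rested on 1 UMI of a marker and hence on depth, and C1q-positive cells held a median of 12279 UMIs in the long and 7395 in the short cohort. Of the 7 melanoma markers, Mlana, Dct, Tyrp1 and Sox10 were at 0 in all 3 Lyz2 classes and also in the Ptprc-negative cells without Lyz2, whereas Mitf was at 71.1 CPM in C1q-positive macrophages, 65.8 CPM in monocytes, 68.7 CPM in other Lyz2 cells and 84.0 CPM in those Ptprc-negative cells. Other Lyz2 cells were mixed. Their neutrophil markers, led by S100a9, summed to 5750 CPM, and their NK markers, led by Gzma, to 386 CPM.

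Levels differed by class in a gene-specific way. Thbs1 and Fn1 had their highest mean in monocytes, Tgfbi in C1q-positive macrophages, and Spp1 in other Lyz2 cells, whereas Vegfa was at a similar level in all 3 Lyz2 classes. In DC each of the 5 genes was at 0 in at least 5 of the 8 arms, and the highest value was 54.4 CPM of Vegfa in short isotype.

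**Figure D1:**
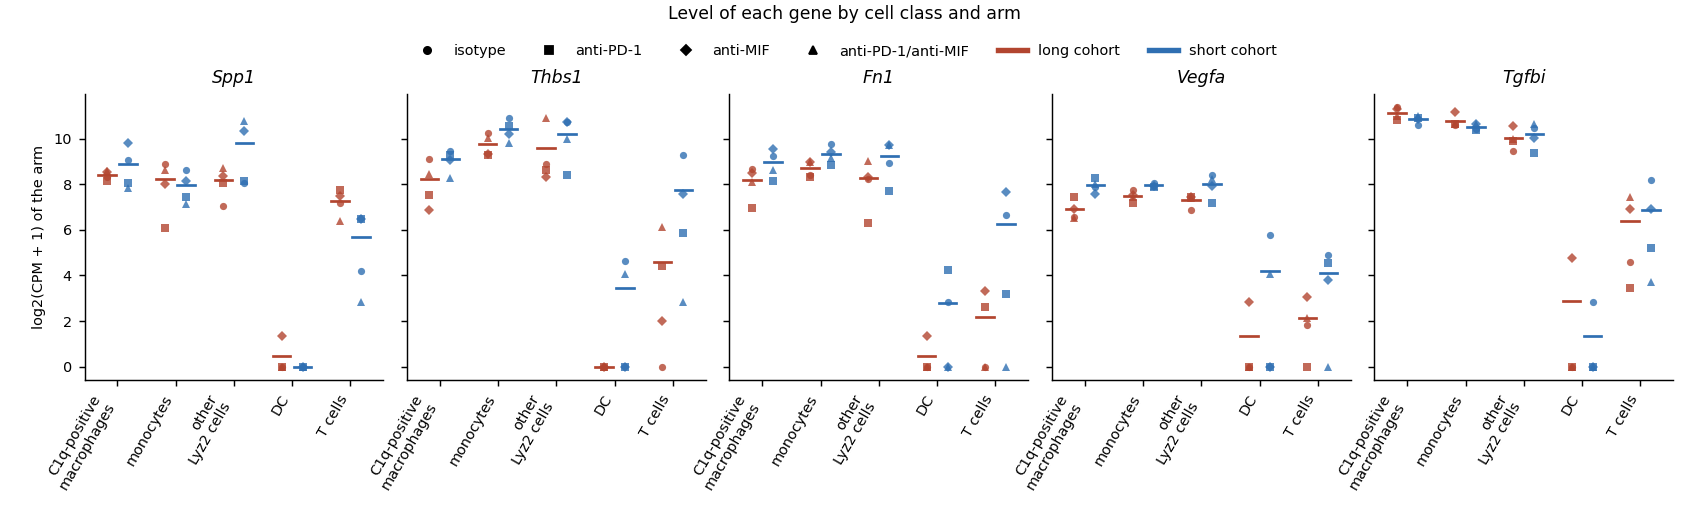
Level of each gene by cell class, with log2(CPM + 1) on the y axis, 1 point per arm and cohort, and bars at the log2 of the cohort's mean CPM + 1. The mean of each gene is lower in DC than in the 3 Lyz2 classes, and the arms of T cells spread widely, with a mean Spp1 level of 102 CPM.

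Spp1 in C1q-positive macrophages of the long cohort was 319 CPM in isotype, 282 in anti–PD-1, 366 in anti-MIF and 379 in anti–PD-1/anti-MIF. In the short cohort the same arms had 536, 262, 893 and 229 CPM. The mean over the 8 arms was 408 ± 218 CPM (SD, n = 8), with anti-MIF of the short cohort as the high sample. Monocytes had 467, 66.7, 259 and 400 CPM of Spp1 in the long and 395, 175, 280 and 138 CPM in the short cohort, with a mean of 273 ± 141 CPM (SD, n = 8). Other Lyz2 cells had 132, 266, 330 and 424 CPM in the long and 265, 285, 1297 and 1774 CPM in the short cohort. Their mean of 596 ± 599 CPM (SD, n = 8) rested on the 2 short arms with anti-MIF, and the ranges of the 3 Lyz2 classes overlapped. C1q-positive macrophages exceeded monocytes in 6 of 8 arms.

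Thbs1 had the widest gap between macrophages and monocytes. In C1q-positive macrophages it was 545, 182, 117 and 345 CPM in isotype, anti–PD-1, anti-MIF and the combination of the long cohort, and 703, 624, 535 and 312 CPM in those of the short cohort. Monocytes had 1200 CPM, 627, 639 and 1029 CPM in the long arms and 1936, 1518 CPM, 1183 and 910 CPM in the short arms. Within every one of the 8 arms the monocytes lay above the macrophages, by a mean of 1.55 on the log2 scale (macrophages minus monocytes, -1.55 ± 0.43, SD, n = 8). The means were 1130 ± 441 CPM and 420 ± 213 CPM (SD, n = 8), although the ranges overlapped between arms. Other Lyz2 cells had a mean of 984 ± 697 CPM (SD, n = 8). C1qb-positive cells without Ly6c2, which numbered 469, had a lower mean Thbs1 level of 213 CPM, so that much of the Thbs1 signal of the macrophage class lay in cells that also carried the monocyte marker.

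Fn1 differed less between classes. C1q-positive macrophages had 411, 125, 356 and 271 CPM in the long arms, in the same order, and 599, 280, 738 and 394 CPM in the short arms. Monocytes had 338, 322, 497 and 506 CPM in the long and 864, 465, 673 and 567 CPM in the short arms. The means were 397 ± 194 CPM in macrophages, 529 ± 177 CPM in monocytes and 450 ± 282 CPM in other Lyz2 cells (SD, n = 8). These 3 means were closer together than the spread between arms.

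Tgfbi was higher in C1q-positive macrophages than in both other Lyz2 classes in 8 of 8 arms. C1q-positive macrophages had 2715, 1813, 2493 and 2017 CPM in the long arms and 1560.4 CPM, 1916, 1890 CPM and 2011 CPM in the short arms. Monocytes had 1565, 1594, 2275 and 1623 CPM in the long arms, and 1368, 1319, 1615 and 1579 CPM in the short arms. The means fell in the order macrophages (2052 ± 374 CPM), monocytes (1617 ± 290 CPM) and other Lyz2 cells (1104 ± 355 CPM; SD, n = 8), with neighbors in that order overlapping.

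Vegfa in C1q-positive macrophages was 92.3, 175, 120 and 91.3 CPM in the long arms and 237, 306, 187 and 261 CPM in the short arms. Monocytes had 211, 145, 183 and 172 CPM in the long arms and 267, 238, 238 and 241 CPM in the short arms. In both classes every long arm was below every short arm. Mean Vegfa levels were 184 ± 80.0 CPM in macrophages, 212 ± 41.8 CPM in monocytes and 206 ± 78.1 CPM in other Lyz2 cells (SD, n = 8), which did not separate the classes.

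DC held 1 UMI of Spp1, 5 of Thbs1, 3 of Fn1, 14 of Vegfa and 18 of Tgfbi among 1312137 UMIs of 149 cells. In short isotype 4 of 23 DC held 9 UMIs of Vegfa (54.4 CPM, 95% counting interval 24.9 to 103). Spp1 was at 0 in 7 of the 8 arms. In those 7 arms a count of 0 allowed between 18.1 CPM (short isotype, 23 cells) and 66.9 CPM (short anti-MIF, 6 cells), a limit that covers counting error only. Spp1 was found in 1 of 103 long DC (0.971%), and after thinning to 2000 UMIs in 0 of 101, which allows a share of up to 2.97% of cells with a UMI and sets no limit on cells expressing the gene.

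T cells held UMIs of all 5 genes, and those of Spp1 were distributed differently from the others. Spp1 in T cells was 145 CPM in isotype, 212 in anti–PD-1, 181 in anti-MIF and 81.8 in anti–PD-1/anti-MIF of the long cohort, and 17.4, 87.6, 89.0 and 6.07 CPM in the short cohort. The T cells that held no UMI of Lyz2 or C1qb numbered 507 and carried 334 UMIs of Spp1, at a mean of 98.2 ± 83.2 CPM (SD, n = 8), but only 9 UMIs of Thbs1, 3 of Fn1, 12 of Vegfa and 16 of Tgfbi. The 82 T cells with Lyz2 or C1qb had means of 719 CPM for Thbs1 and 540.2 CPM for Tgfbi against 165 CPM for Spp1. The myeloid transcripts of the T cell class therefore lay mostly in cells that also carried a myeloid marker, and the Spp1 transcripts did not. Whether those 82 barcodes were doublets within an arm was not tested. At 2000 UMIs per cell, Spp1 was found in 27 of 248 long T cells (10.9%, exact 95% interval 7.30 to 15.4) and in 8 of 273 short T cells (2.93%, 1.27 to 5.69). The share in DC was 0 of 101 and 0 of 43. Without thinning the shares were 16.8% and 4.76%, with median depths of 5332 and 4086 UMIs in T cells.

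The share of cells with a UMI separated the genes further. At 2000 UMIs per cell, Tgfbi was found in 93.0% of long and 89.8% of short C1q-positive macrophages. Spp1 was found in only 22.7% and 22.0% of them. For Thbs1 the shares were 14.3% and 34.6%, for Vegfa 15.0% and 30.8%, and for Fn1 24.4% and 29.1%. All these shares pool the 4 arms, and anti-MIF gave 350 of the 488 long and 90 of the 491 short macrophages. In monocytes Thbs1 reached 40.1% and 54.9%, whereas Spp1 was at 13.9% and 12.0%. The higher Thbs1 level of monocytes came with more positive cells, and the same held for the higher Vegfa level of short C1q-positive macrophages.

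**Figure D2:**
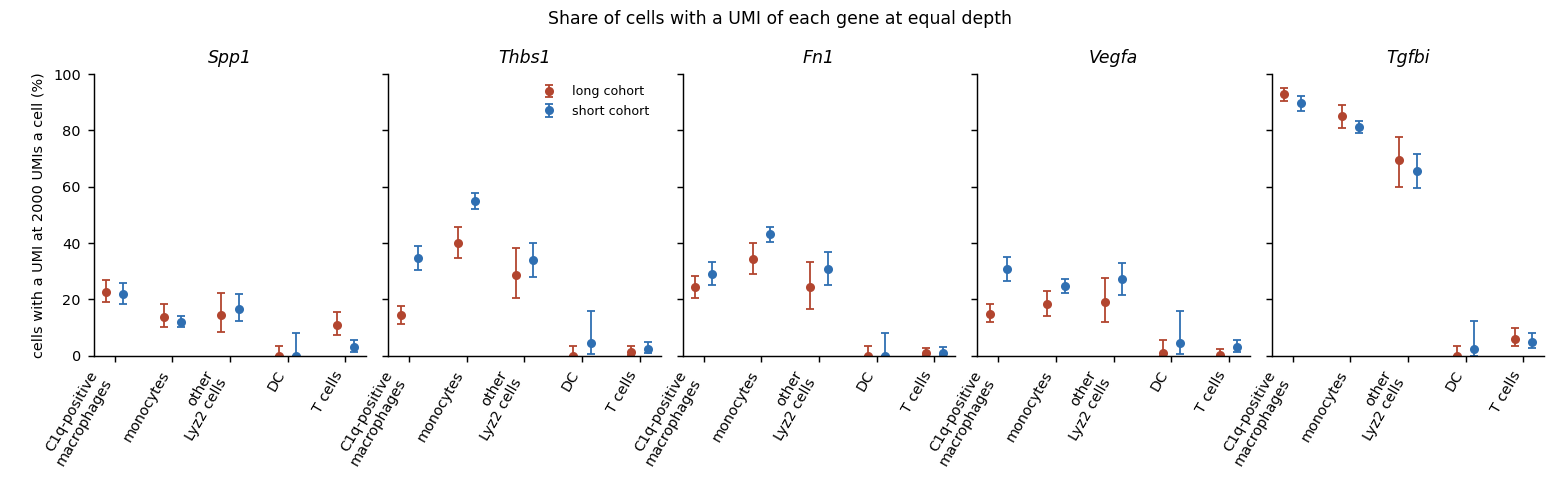
Percent of cells with at least 1 UMI of each gene after thinning every cell to 2000 UMIs, by class and cohort, with exact (Clopper-Pearson) 95% binomial intervals that cover counting error only. Tgfbi is found in most C1q-positive macrophages and monocytes, Spp1 in fewer than 1 in 4 of either, and all genes are rare in DC.

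Spp1 transcripts were concentrated in few cells. The top 10% of C1q-positive macrophages held 76.4% of Spp1 UMIs in the long and 85.9% in the short cohort, and the top 10% of monocytes held 94.2% and 93.6%. For Tgfbi, the top 10% of C1q-positive macrophages held 27.1% and 27.2%. The shares in macrophages were 64.3% and 73.3% for Fn1, 60.5% and 53.7% for Vegfa, and 79.6% and 66.7% for Thbs1. Thbs1 was thus above Spp1 in the long cohort with the 4 arms pooled. Most long macrophages came from anti-MIF, the arm with the lowest long Thbs1 level (117 CPM). The order of the genes within each arm was not compared. Single cells set some arm values. In long isotype, 1 cell held 85.5% of the Spp1 UMIs of C1q-positive macrophages, and without it the level there was 49.7 CPM in place of 319. All 8 Spp1 UMIs of the 12 other Lyz2 cells in that arm came from 1 cell, and 1 cell held 62.4% of Thbs1 in the other Lyz2 cells of long anti–PD-1/anti-MIF.

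**Figure D3:**
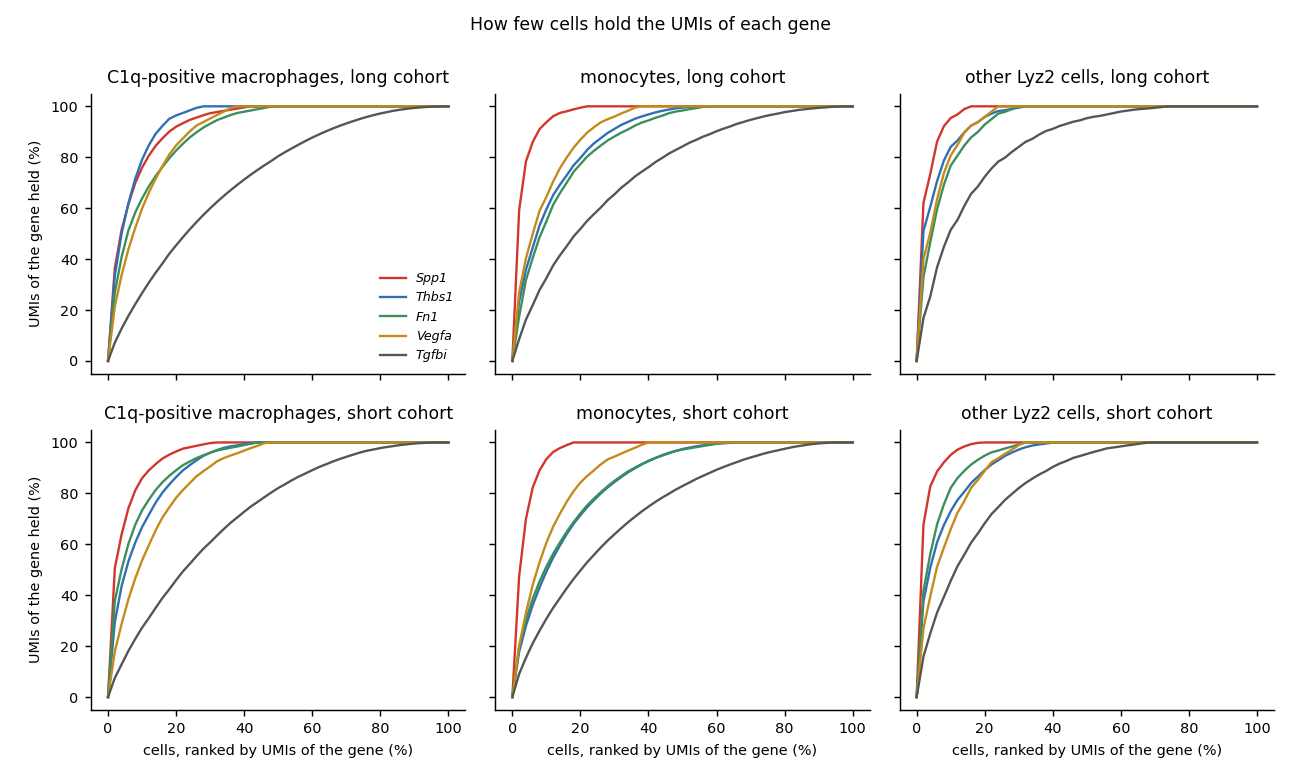
Cumulative percent of a gene's UMIs against the percent of cells, ranked from the cell with the most UMIs, in each Lyz2 class and cohort with the 4 arms pooled. At the top 10% of cells Tgfbi has the lowest curve in each panel, and Spp1 the highest in all but long C1q-positive macrophages, where Thbs1 is at 79.6% and Spp1 at 76.4%.

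Pairs of genes in the same cell were described at 2000 UMIs per cell. Among long C1q-positive macrophages, Fn1 was found in 43.2% of the 111 Spp1-positive cells and in 18.8% of the 377 others. In the short cohort these shares were 42.6% of 108 and 25.3% of 383. Fn1 was also more frequent in Thbs1-positive cells (40.0% against 21.8% in the long and 49.4% against 18.4% in the short cohort). Thbs1 itself was found in similar shares of Spp1-positive and Spp1-negative macrophages (16.2% against 13.8% in the long cohort, 38.0% against 33.7% in the short cohort). Fn1 was thus shared by Spp1-positive and Thbs1-positive macrophages. All 5 genes were found together in 4 of 488 long and 10 of 491 short C1q-positive macrophages.

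C1q-positive macrophages were also divided by Trem2, a lipid receptor of tumor-associated macrophages, and Ccr2, the chemokine receptor of recruited monocytes. Spp1 was at 529 ± 353 CPM in 576 cells with Trem2 and at 243 ± 101 CPM in 318 cells with Ccr2 and no Trem2 (SD, n = 8), with the Trem2-positive cells higher in 7 of 8 arms. Fn1 was at 517 ± 296 CPM and 271 ± 196 CPM, higher with Trem2 in 6 of 8 arms. Thbs1 (422 and 535 CPM, 3 of 8 arms), Vegfa (179 and 206 CPM, 2 of 8 arms) and Tgfbi (2022 and 2153 CPM, 4 of 8 arms) did not share that direction. The long anti–PD-1 arm went the other way for Spp1.

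Between cohorts, Vegfa was the only 1 of the 5 genes whose 4 long arms all lay on the same side of the 4 short arms. This held in C1q-positive macrophages, where 8.85% of the 7594 genes tested were separated in this way, and in monocytes, where 15.2% of 8405 genes were. In other Lyz2 cells 0 of the 5 genes separated, against 8.62% of 5373 genes. With 1 of 5 genes in each of 2 classes, the shares were near these backgrounds. The mean log2 difference of Vegfa, long minus short, was -1.07 ± 0.42 in macrophages and -0.48 ± 0.17 in monocytes (SD, n = 4 arms). Fn1 was lower in the long cohort in 4 of 4 arms of all 3 classes, with -0.82 ± 0.33 in macrophages, but its arms overlapped. How many of all genes were lower in 4 of 4 long arms was not counted. Tgfbi had a positive mean difference in macrophages (0.28 ± 0.40) and monocytes (0.25 ± 0.19). No test of the cohorts was made, since each was 1 library.

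To ask whether either antibody changed the genes, UMIs were summed per class and arm, and the 8 arms were fitted together with edgeR's quasi-likelihood test with cohort, anti–PD-1 and anti-MIF as terms. No arm had a replicate of its own, so the error came from the differences between arms that these terms leave. The 5 genes were chosen on these same values, so their fitted changes are given as a description and support nothing. At a Benjamini-Hochberg adjusted p below 0.05, none of the 5 genes passed in the 3 Lyz2 classes for either antibody. DC and T cells were not fitted.

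**Figure D4:**
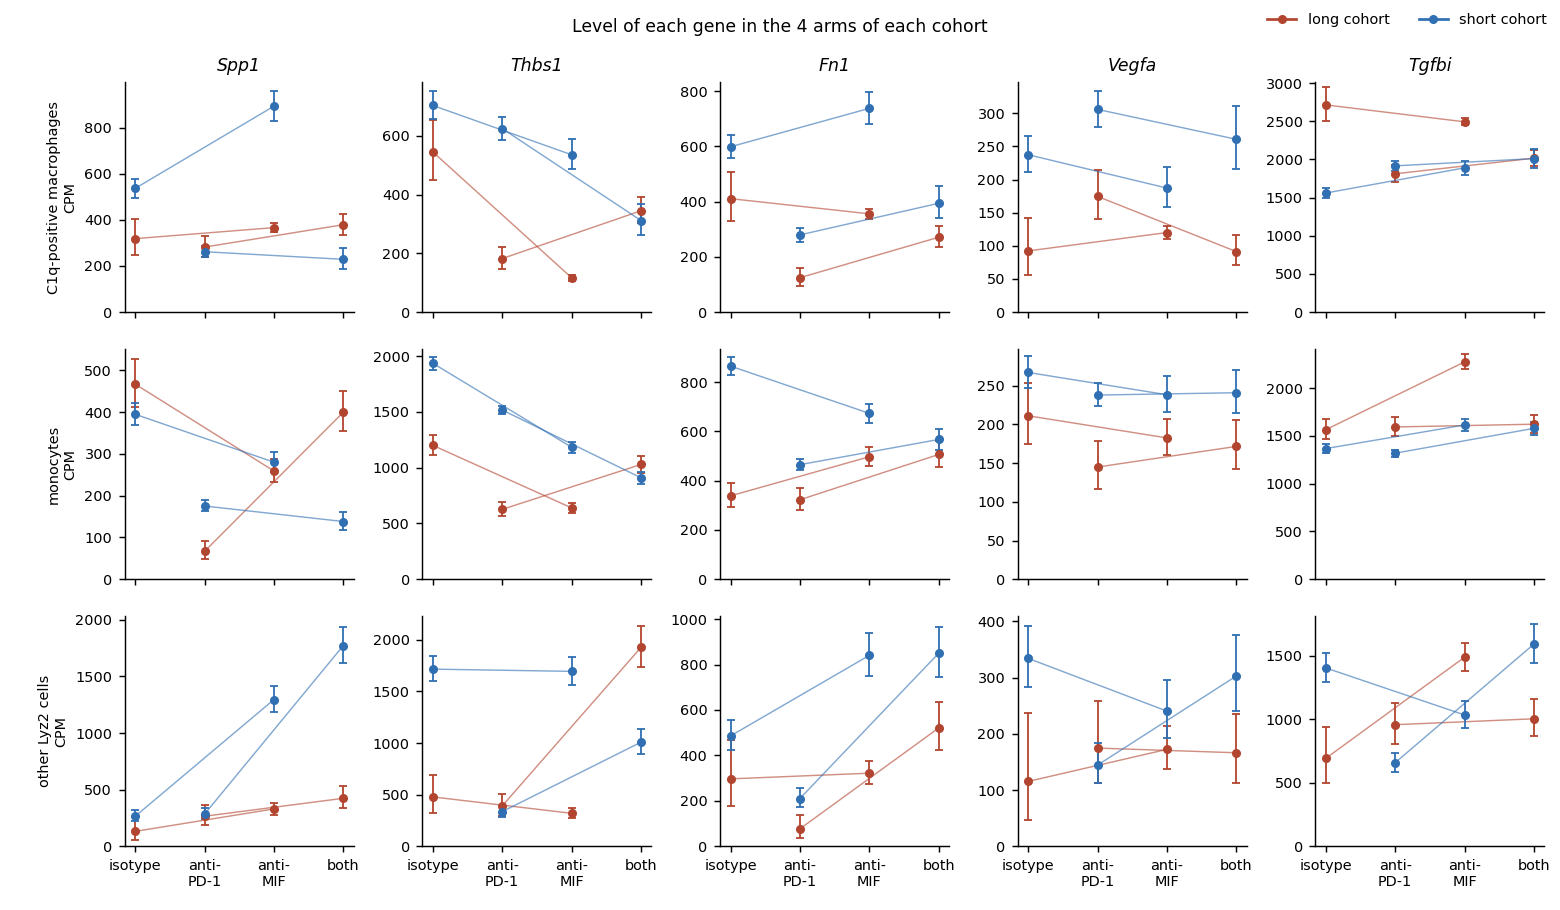
CPM of each gene in the 3 Lyz2 classes by arm and cohort, with exact Poisson 95% intervals that cover counting error only and thin lines joining arms without and with anti-MIF ("both" is anti–PD-1/anti-MIF). Spp1 and Fn1 of other Lyz2 cells are higher with anti-MIF on all 4 lines, as is Tgfbi of monocytes. Their mean log2 differences are 1.73, 1.41 and 0.27.

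In C1q-positive macrophages, anti-MIF changed 0 of the 7594 genes tested (0%) and anti–PD-1 0 (0%) by edgeR. DESeq2 also called 0 for both, while 303 and 473 genes had an unadjusted edgeR p below 0.05. The fitted anti-MIF changes of the 5 genes ran from -0.66 for Thbs1 (SE 0.37) to 0.36 for Fn1 (SE 0.20), with Tgfbi at 0.03 (SE 0.16). For Thbs1 the direction turned to 0.36 without the cells that held Ly6c2, and leaving out 1 arm moved it between -1.22 and -0.33. For anti–PD-1, Fn1 had the farthest value, -0.97 (SE 0.20), and it was lower in 4 of 4 pairs of arms. The pairs ran from 411 to 125 CPM and from 356 to 271 CPM in the long, and from 599 to 280 CPM and from 738 to 394 CPM in the short cohort. In long isotype, 1 of the 23 cells held S100a8 and S100a9 and 50 of the Fn1 UMIs, and the neutrophil markers summed to 1136 CPM there against 24.8 to 159 CPM in the 7 other arms. Without such cells Fn1 was at 189 CPM in long isotype and its fitted value was -0.74. Spp1 was at -0.76 (SE 0.28) and lower in 3 of 4 pairs. The summed macrophage markers of this class went from 7207 to 6293 CPM and from 11393 to 6482 CPM with anti–PD-1 in the long pairs. In the short pairs they went from 6324 to 3185 CPM and from 4960 to 5074 CPM. The monocyte markers went from 3139 to 2167 CPM and from 844 to 1470 CPM in the long pairs. In the short pairs they went from 1439 to 3496 CPM and from 3116 to 2906 CPM. Their part in the Fn1 and Spp1 values was not tested.

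The cells that held Ly6c2 bore on the anti–PD-1 values of both Fn1 and Spp1. Without them the arms kept between 7 cells (long isotype) and 215 cells (long anti-MIF), with 111 in short isotype and 35 in short anti–PD-1. Fn1 was then lower with anti–PD-1 in 2 of 4 pairs and fitted at -0.34. Its long pairs went from 0 to 40.7 CPM and from 337 to 237 CPM, and its short pairs from 408 to 349.9 CPM and from 478 to 499 CPM. Spp1 was then higher with anti–PD-1 in 3 of 4 pairs and fitted at -0.14. It went from 0 to 46.5 CPM, from 357 to 435 CPM and from 586 to 682 CPM in those pairs, and from 483 to 71.3 CPM in the short pair with anti-MIF. With all cells but without long anti–PD-1/anti-MIF, Fn1 was at -1.17 and was past the threshold. Leaving out 1 arm at a time gave 0 to 12 genes past it for anti–PD-1 in this class.

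In monocytes, anti-MIF changed 1 of 8405 genes (0.0119%), the heat shock gene Hspb1, which was lower, and anti–PD-1 changed 1 (0.0119%), the granzyme gene Gzma, which was higher. Gzma is 1 of the 4 NK markers, which summed to 64.8 CPM in monocytes of short anti–PD-1, 16.9 CPM in those of short anti–PD-1/anti-MIF and at most 1.63 CPM in the 6 other arms, and the part of NK cells in this call was not tested. With each treated arm and its control of the same cohort and other antibody as a pair, anti-MIF changed 4 monocyte genes and anti–PD-1 0. Anti–PD-1 also changed 0 with the fifth hashtag added, with MULTIseqDemux, with 2 UMIs per marker and with thinned classes. Of the 5 genes, Tgfbi had an anti-MIF value of 0.24 (SE 0.11), with the treated arm above its control in 4 of 4 pairs, and Thbs1 was at -0.43 (SE 0.24). With anti–PD-1 all 5 fitted values were below 0, from -0.87 for Spp1 (SE 0.42) to -0.13 for Tgfbi (SE 0.11). The neutrophil markers summed to 13856 CPM in monocytes of long anti–PD-1/anti-MIF against 94.3 to 1661 CPM in the 7 other arms. Without the cells that held at least 10 UMIs of S100a8 and S100a9, the anti–PD-1 values in monocytes were -0.033 instead of -0.19 for Thbs1, -0.098 instead of -0.17 for Vegfa and -0.053 instead of -0.13 for Tgfbi, while Spp1 was at -0.79 and Fn1 at -0.28. The anti-MIF values were then 0.32 for Tgfbi and -0.31 for Thbs1.

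In other Lyz2 cells, anti-MIF changed 2 of 5373 genes (0.0372%), Pclaf, a replication factor gene, and the granzyme gene Gzmc, both lower, and anti–PD-1 changed 1 (0.0186%), Gzmc, which was higher. Spp1 had the farthest anti-MIF value of the 5 genes, 1.79 (SE 0.31), with higher levels in 4 of 4 pairs of arms. The pairs ran from 132 to 330 CPM and from 266 to 424 CPM in the long, and from 265 to 1297 CPM and from 285 to 1774 CPM in the short cohort. The highest single cell held 47.3% of the Spp1 UMIs in short anti-MIF and 51.2% in short anti–PD-1/anti-MIF. With the UMIs of the top cell of each arm left out the value was 1.73, and without S100a8/S100a9 cells it was 1.97, and neither was past the threshold. All 8 Spp1 UMIs of long isotype came from 1 such cell, so that both alternatives left this control arm at 0. With the arms as 4 pairs, anti-MIF changed 14 genes, 3 higher and 11 lower, and Spp1 was past the threshold at 1.85. It was also past it with DESeq2 (1.75) and in edgeR without long anti–PD-1 (2.23) or without long anti-MIF (1.95). DESeq2 called 5 genes for anti-MIF in this class, and leaving out 1 arm at a time gave 0 to 15. Spp1 was chosen on these values, so its calls are a description. Fn1 was higher in the same 4 pairs, which ran from 297 to 322 CPM, 76.9 to 521 CPM, 486 to 840.4 CPM and 210.3 to 850 CPM, with a fitted value of 1.37 (SE 0.34). With anti–PD-1, Spp1 of this class was also higher in 4 of 4 pairs of arms, with a fitted value of 0.51 (SE 0.30). The 4 other genes were fitted lower with anti–PD-1. How many of all genes went in the same direction in 4 of 4 pairs was not counted.

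Markers of other cells also differed between the arms of other Lyz2 cells, and their part in these values was not tested. All 4 neutrophil markers had UMIs, and their sum was 10158, 12595, 3733 and 8057 CPM in isotype, anti–PD-1, anti-MIF and the combination of the long cohort and 5612, 1402, 4362 and 77.6 CPM in the short cohort. All 4 NK markers had UMIs, with sums of 1121 CPM in long isotype, 175 CPM in long anti–PD-1, 1778 CPM in short anti–PD-1 and at most 10.5 CPM in the other 5 arms. The 5 fibroblast markers, led by Col3a1, summed to 2555 CPM in long anti–PD-1/anti-MIF and at most 16.5 CPM elsewhere. The T cell markers summed to 147 CPM in long anti–PD-1, 113 CPM in short anti–PD-1 and at most 23.1 CPM elsewhere. The B cell markers summed to 96.1 CPM in short anti–PD-1/anti-MIF, 34.9 CPM in long anti–PD-1 and at most 2.12 CPM elsewhere. The arms without anti-MIF thus carried more of the neutrophil signal within each pair, and the high NK and T cell sums lay in arms without anti-MIF.

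**Figure D5:**
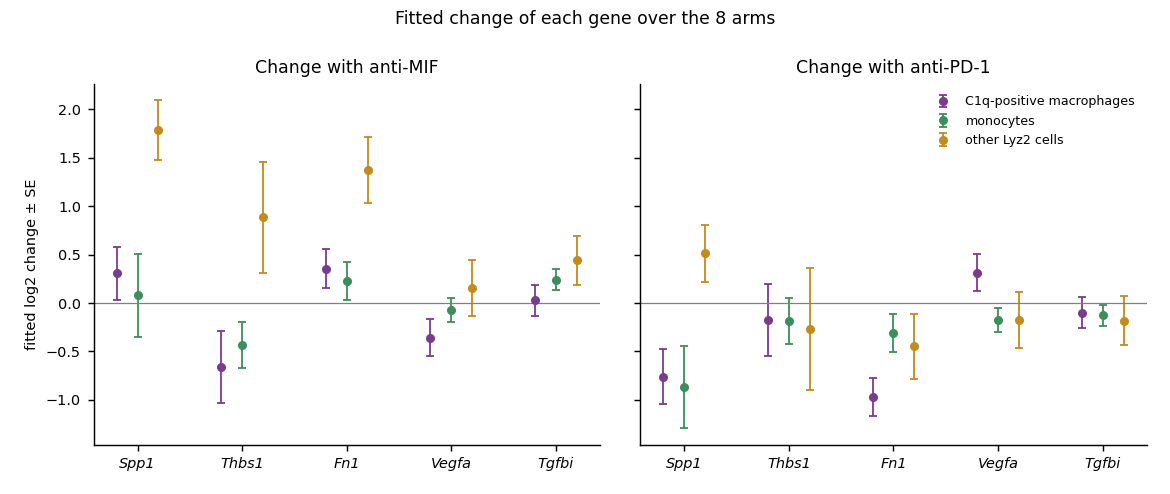
Fitted log2 changes of the 5 genes with either antibody in each Lyz2 class, from edgeR over 8 arms, with bars of 1 SE on each side. Spp1 (1.79) and Fn1 (1.37) of other Lyz2 cells with anti-MIF lie highest, Fn1 of C1q-positive macrophages with anti–PD-1 (-0.97) lowest, and none passed at an adjusted p of 0.05.

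Whether the anti-MIF change differed between cohorts was tested by the product of cohort and anti-MIF. It passed for 4 of 7594 genes in C1q-positive macrophages (0.0527%), namely Il1b, Fosb, Ccrl2 and Cd14, for 0 of 8405 genes in monocytes (0%) and for 0 of 5373 genes in other Lyz2 cells (0%) by edgeR. DESeq2 called 22, 2 and 1 genes, and the unadjusted edgeR p was below 0.05 for 581, 564 and 254 genes. None of the 5 genes passed. Spp1 of other Lyz2 cells was at -1.60 (SE 0.40), long minus short. In monocytes, Thbs1 was at 0.70 (SE 0.45), and without long anti-MIF it was at 1.31 and past the threshold. Leaving out 1 arm at a time gave 0 to 43 monocyte genes past it for this difference.

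Genes of the same pathways were taken from 5 fixed lists. None of their genes passed for either antibody in the 3 Lyz2 classes, and the lists are described by their counts and medians beside those of all genes. In C1q-positive macrophages, 16 of 20 receptors of these proteins were tested for anti-MIF (4 fitted higher and 12 lower, median log2 change -0.16), as were 9 of 20 angiogenic factors (3 and 6, -0.05), 15 of 24 matrix and protease genes (5 and 10, -0.12), 2 of 15 relatives of the 5 genes (0 and 2, -0.20) and 16 of 19 regulators and hypoxia genes (3 and 13, -0.30). Of all 7594 genes, 3783 were fitted higher and 3811 lower, with a median of -0.0010. For anti–PD-1, in the same order, 9 were fitted higher and 7 lower (0.02), 3 and 6 (-0.17), 7 and 8 (-0.04), 0 and 2 (-0.51), and 11 and 5 (0.05), against 3815 and 3779 of all genes (0.0024). In monocytes with anti-MIF the numbers were 7 and 9 (-0.03), 4 and 6 (-0.07), 10 and 7 (0.16), 1 and 1 (-0.13), and 8 and 9 (-0.03), against 4232 and 4173 of all genes (0.0020). With anti–PD-1 they were 7 and 9 (-0.04), 4 and 6 (-0.04), 7 and 10 (-0.08), 0 and 2 (-0.29), and 8 and 9 (-0.04), against 4043 and 4362 (-0.0099). In other Lyz2 cells with anti-MIF they were 6 and 7 (-0.06), 1 and 4 (-0.52), 9 and 5 (0.22), 1 and 1 (-0.01), and 10 and 7 (0.22), against 2692 and 2681 (0.0010). With anti–PD-1 they were 4 and 9 (-0.15), 1 and 4 (-0.29), 5 and 9 (-0.19), 2 and 0 (0.40), and 7 and 10 (-0.06), against 2711 and 2662 (0.0029). Of these lists, Il1b, an angiogenic cytokine, was the only gene to pass the test of the difference between cohorts.

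Receptor transcripts were measured as class means. Cd44, the hyaluronan receptor that also binds osteopontin, Cd47, a receptor of thrombospondin-1, and Lrp1, an endocytic receptor that takes up thrombospondin-1, were the 3 receptor genes with the highest mean level by UMIs in each of the 3 Lyz2 classes. In C1q-positive macrophages they were at 459, 298 and 264 CPM, in monocytes at 807, 397 and 284 CPM, and in other Lyz2 cells at 768, 380 CPM and 321 CPM. In DC the integrin subunit Itga4 (962 CPM), Cd47 (639 CPM) and Itgb1 (438 CPM) led, and in T cells Cd47 (348 CPM), Itgav (285 CPM) and Cd44 (279 CPM).

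The genes with the most similar pattern were found by Pearson's correlation of log2(CPM + 10) among 5867 genes over 33 units of class and arm with at least 20 cells. The units share 2 libraries and mostly separate the Lyz2 classes from DC and T cells. Tgfbi was followed most closely, by the Fc receptor genes Fcgr2b (r = 0.991) and Fcgr3, then Ccr1 and Itgam, and within the 23 Lyz2 units the first 2 were at 0.798 and 0.835. Thbs1 was closest to F10, the gene of coagulation factor X (0.960), followed by Fam129b, Emilin2, Smox and Gda, and F10 was at 0.892 within the Lyz2 units. Fn1 was closest to Emilin2, Lrp1, Itgam, Pilrb1 and Cd14 (0.948 to 0.938) and Vegfa to Lrp1, Gab2, Lyn, Fndc3b and Plcg2 (0.954 to 0.949). Spp1 had the weakest likeness, to Tm6sf1 (0.838), Ctsa, Tmem189, Timm10b and Slc43a2, and for Tm6sf1 it was 0.301 within the Lyz2 units. Among the 5 genes themselves, Thbs1 and Fn1 had the highest value within the Lyz2 units (0.622) and Thbs1 and Tgfbi the lowest (-0.339).

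All 5 are protein-coding genes in separate regions of GRCm38 in the GENCODE vM21 annotation. Fn1 lies on the minus strand at chr1:71585520-71653200, Thbs1 on the plus strand at chr2:118111876-118127133, Spp1 on the plus strand at chr5:104435118-104441050, Tgfbi on the plus strand at chr13:56609523-56639562 and Vegfa on the minus strand at chr17:46016993-46032369. UMIs were counted per gene, so isoforms such as those of Vegfa were not resolved.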

How the data were processed

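Per the labels and the study's methods, the authors aligned reads with Cell Ranger 7.1.0 to mm10 and deposited, for each cohort, UMI counts per gene and cell and counts per hashtag. They used Seurat 5.1.0 in R 4.3.2 and named DESeq2 among their tools. The deposited counts were analysed here from the start, with R 4.3.3, Seurat 5.3.0, edgeR 4.0.16 and DESeq2 1.42.0.

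Hashtags were called with HTODemux at a positive quantile of 0.99, which left out 425 doublets and 24 negatives from the long library and 626 doublets and 176 negatives from the short library. Doublets within an arm were not called. Cells with 200 to 5000 genes and at most 5% mitochondrial UMIs were kept. DC and T cells were assigned before the Lyz2 classes, and cells with Ccr7, Fscn1 and Cd3e had no class. CPM is a gene's UMIs over all UMIs of a class and arm. Depth ran from 1563467 to 8712647 UMIs per arm. Intervals and limits for a count of 0 (3 counts) cover counting error only.

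UMIs per class and arm were tested over the 8 arms with edgeR's quasi-likelihood test (filterByExpr, TMM, Benjamini-Hochberg over all genes tested), with cohort, anti–PD-1 and anti-MIF as terms. The p-values measure the spread between arms, which the labels do not call replicates. The code was checked on simulated counts. Alternatives were DESeq2, other scaling, no filter on low counts, each arm left out, the fifth hashtag added, other hashtag calls, cell limits, marker thresholds and thinning. After the data were seen, alternatives without S100a8/S100a9 cells, without T cells holding Lyz2 or C1qb, without the top cell of each arm, and with treated and control arms paired were added.

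The 5 genes, the cell classes and the lists were chosen with earlier results of these data known. From the lists, genes that passed a test and the 3 receptors with the highest mean level per class were named, and for each of the 5 genes the 5 most similar genes, of which 1 is not reported here.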

Additional observations from a re-analysis of the deposited data

Results flagged for a closer look

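Levels of the 4 arms of a cohort were compared with each other by gene and class, in 40 groups of 4. Chance would flag about 1 in 20 of these groups, and not every combination of gene, class and cohort was among them. The genes were chosen on these values, so the spacing is a description and no test of an arm. In 4 groups, 1 arm stood far from the other 3. Vegfa in monocytes was at 267 CPM in short isotype against 238 to 241 CPM in the other short arms. Tgfbi in monocytes was at 2275 CPM in long anti-MIF against 1565 to 1623 CPM. Thbs1 in other Lyz2 cells was at 1927 CPM in long anti–PD-1/anti-MIF against 320 to 478 CPM, from 27 cells of which 1 held 62.4% of the UMIs. Vegfa in other Lyz2 cells was at 115 CPM in long isotype against 166 to 175 CPM, from 12 cells of which 1 held 42.9%.

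For Tgfbi in C1q-positive macrophages, arms with anti–PD-1 were lower than their controls in both long pairs (log2 differences of -0.58 and -0.31) and higher in both short pairs (0.30 and 0.09). The cohorts' means differed by -0.64, long minus short, and this difference was not tested.

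The cells with the fifth hashtag had a treatment that the labels do not list. They were compared with the 4 labelled arms of their cohort in 40 values, which also left out some combinations of gene and class. They were the highest in 14 and the lowest in 3, with a counting interval above those of all 4 arms in 9 and below them in 1. The 1 below was Spp1 in C1q-positive macrophages of the long cohort, at 185 CPM from 76 cells (labelled arms 282 to 379 CPM), and the 9 above follow. In C1q-positive macrophages, Vegfa was at 311 CPM in the long cohort (labelled arms 91.3 to 175 CPM) and 411 CPM in the short cohort (187 to 306 CPM), and Thbs1 at 849 CPM in the short cohort (312 to 703 CPM). In monocytes of the long cohort, Thbs1 was at 1646 CPM (627 to 1200 CPM) and Vegfa at 434 CPM (145 to 211 CPM). Vegfa in other Lyz2 cells of the long cohort was at 590.0 CPM (115 to 175 CPM) from 24 cells. In 25 T cells of the long cohort, Thbs1 was at 718 CPM, Vegfa at 186 CPM and Tgfbi at 423 CPM, and 1 cell held 52.7%, 65.5% and 39.4% of these UMIs.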

How the results depend on the processing

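Under alternatives other than leaving out an arm, all 205 recomputed mean CPM values moved by less than 1 SD between arms, a wide margin that includes Thbs1 in macrophages at 213 CPM without Ly6c2 cells against 420 CPM. Of the log2 changes of the 5 genes, 742 of 805 recomputed values kept direction and call. These values covered both antibodies for all 5 genes. The difference between cohorts was covered only for Spp1 in the 3 Lyz2 classes and for Thbs1 in macrophages and monocytes. Counts of genes passing are given in the order C1q-positive macrophages, monocytes and other Lyz2 cells. Without the filter on low counts, 38, 96 and 99 genes passed for anti-MIF, 101, 59 and 77 for anti–PD-1, and 124, 106 and 30 for the difference between cohorts. There Spp1 and Fn1 (anti–PD-1, macrophages), Spp1 (anti–PD-1 and the difference, monocytes) and Spp1, Thbs1 and Fn1 (anti-MIF, other Lyz2 cells) passed. DESeq2 called 3 monocyte and 5 other Lyz2 genes for anti-MIF, and 22, 2 and 1 for the difference. With the fifth hashtag added, monocyte counts were 0 for both antibodies and 1 for the difference, which passed for 1 macrophage gene. With 2 UMIs per marker, the difference passed for 9 macrophage genes, anti–PD-1 for 0 monocyte genes, and both antibodies for 0 other Lyz2 genes. With classes from cells thinned to 2000 UMIs, the difference passed for 8 macrophage genes and 1 monocyte gene, both antibodies for 0 monocyte genes, and anti-MIF for 1 and anti–PD-1 for 0 other Lyz2 genes. With MULTIseqDemux, anti–PD-1 passed for 0 monocyte genes, and with it, a stricter HTODemux quantile, a mitochondrial limit of 10% or no upper limit on genes, anti-MIF passed for 1 other Lyz2 gene. Leaving out 1 arm gave 0 to 6, 0 to 5 and 0 to 15 genes for anti-MIF, 0 to 12, 0 to 5 and 0 to 7 for anti–PD-1, and 0 to 116, 0 to 43 and 0 to 4 for the difference.

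Directions of these recomputed log2 changes turned as follows. In macrophages, without cells holding Ly6c2, the anti-MIF values were 0.36 for Thbs1 and 0.15 for Vegfa, and the difference was 4.52 for Spp1 and 5.22 for Thbs1, both among 19 genes passing. Long isotype then had 7 cells with 0 UMIs of Spp1 and Thbs1. With 2 UMIs per marker, Tgfbi was at -0.016 (anti-MIF) and Thbs1 at 0.00069 (anti–PD-1) in macrophages, and Vegfa at 0.13 (anti–PD-1) in other Lyz2 cells. With thinned classes, Thbs1 was at 0.15 (anti-MIF) and 0.29 (anti–PD-1) in macrophages, Vegfa at 0.11 (anti-MIF) in monocytes, and Thbs1, Vegfa and Tgfbi at 0.14, 0.11 and 0.092 (anti–PD-1) in other Lyz2 cells. Spp1's difference in macrophages, near 0 in the report's fit, was 0.030 with DESeq2, 0.083 without the filter, 1.72 without top cells, 0.11 with a stricter HTODemux quantile, 0.18 with MULTIseqDemux, 0.047 without the gene limit and 0.74 with thinned classes. In monocytes with anti-MIF, Spp1 was at -0.42 with a stricter HTODemux quantile and -0.39 with MULTIseqDemux, and Vegfa at 0.0092 without top cells. Leaving out 1 arm, in macrophages, gave -0.039 to 0.56 for Spp1 and -0.071 to 0.15 for Tgfbi (anti-MIF), -0.72 to 0.15 for Thbs1 and -0.20 to 0.016 for Tgfbi (anti–PD-1), and -0.65 to 1.00 for Spp1 and -1.07 to 1.37 for Thbs1 (difference). In monocytes it gave -0.48 to 0.32 for Spp1 (anti-MIF) and -0.55 to 0.039 for Thbs1 (anti–PD-1), and in other Lyz2 cells -0.15 to 0.57 for Vegfa (anti-MIF) and -1.13 to 0.55 for Thbs1, -0.39 to 0.21 for Vegfa and -0.41 to 0.16 for Tgfbi (anti–PD-1). The cause of these changes was not tested. Shares of cells with a UMI moved with the thinning depth in 47 of 60 comparisons. The arms carry no replicate numbers. In the paired fit, added after the data were seen, the treated arm and the control of the same cohort and other antibody formed a pair (4 pairs). The labels do not pair these arms. For monocytes 4 genes passed for anti-MIF, 0 for anti–PD-1 and 1 for the difference, and for other Lyz2 cells 14 genes passed for anti-MIF. Spp1's difference in macrophages was then 0.11, and Spp1 (anti-MIF, other Lyz2 cells, 1.85) passed, while no other call among these recomputed log2 changes changed. Arms with few cells (12 other Lyz2 cells and 23 macrophages in long isotype) limit every value that rests on them.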
